A study of Mus musculus with 6 samples.

Results

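The genes described here are the transcription factors of the MYC, MAX and MXD network: Myc, Mycn and Mycl, their partner Max, the MXD family members Mxd1, Mxd3, Mxd4 and Mxi1, the related repressor Mnt, and Mlx, which heads the parallel branch of the network. They were chosen by name, and all 10 are among the 53465 genes of the count table. RNA sequencing had been performed on 6 mouse liver tumour cell lines, 3 with the genotype Myc_Utx (lines 2A, 2B and 2D) and 3 with the genotype Myc_p53 (lines 1, 2 and 3), where Utx is another name for Kdm6a. The tumours had arisen in adult female mice of the C57BL/6 strain after hydrodynamic tail vein injection of a transposon carrying a MYC cDNA under the EF1a promoter, together with Sleeping Beauty transposase and the pX330 plasmid encoding Cas9 and a guide RNA, which targeted Kdm6a in the first group and a different gene in the second. The lines are described as independently derived from tumours and were grown on until contaminating cells were no longer seen. The labels do not say whether 2A, 2B and 2D came from separate mice, so the spread between them may understate that between animals. Both groups therefore carry the delivered Myc, and they differ in the edited gene. A group with Myc alone was not analysed here, so an effect of editing Kdm6a cannot be told apart from an opposite effect of the edit in the other group.

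MYC proteins bind DNA only as dimers with MAX, mostly at the E-box, and such dimers recruit histone acetyltransferases and raise the transcription of genes for ribosome production, metabolism and growth. The MXD proteins and MNT compete for MAX and for the same sites, and bring in the SIN3 corepressor with its histone deacetylases. MLX pairs with the glucose-responsive factors MondoA (Mlxip) and ChREBP (Mlxipl) and also with some of the MXD proteins and MNT, whereas MGA is a large MAX partner that belongs to a repressive polycomb complex. MYC is a classical driver of liver tumours, and in normal liver MXD proteins accompany differentiation and rest.

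Library totals were 4656103 to 6937497 counts. The label of the first group was set against the mRNA level of its edited gene. In cell lines from such tumours the paper reports indels in Kdm6a and loss of its protein, which counts per gene do not measure. Kdm6a had 39.7, 45.7 and 49.0 CPM (reads scaled by the TMM-adjusted library total) in the Myc_Utx lines against 69.5, 64.5 and 42.5 in the Myc_p53 lines, so its groups overlapped (log2 fold change -0.39, standard error 0.22, adjusted p = 0.243). Because the study's methods name Mll3 (Kmt2c) in place of Kdm6a for these lines, Kmt2c was looked at as well, and it had 69.6, 77.0 and 86.6 CPM against 148.4, 115.8 and 121.3 (log2 fold change -0.73, adjusted p = 0.0289, or -0.36 and 0.196 with offsets for transcript length). The label of liver cells was set against hepatocyte markers. Alb had 4 to 26 counts in every line, Hnf4a had 3, 3 and 0 counts in the Myc_Utx lines and 64, 8 and 47 in the Myc_p53 lines, and Krt8 was at 0 in line 2D. The 10 hepatocyte markers summed to 29.3 to 95.9 CPM in Myc_Utx lines and to 76.9 to 1246 CPM in Myc_p53 lines, the lowest of the latter being line 2. In Myc_p53 lines 1 and 3 most of the sum was Krt8 (717.0 and 446.3 CPM) and Krt18 (471.5 and 314.8 CPM). Fgb went the other way in line 2D, at 44.3 CPM against 14.8 to 25.3 in Myc_p53 lines, with 2.19 and 1.12 in 2A and 2B.

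The E-box CACGTG (a palindrome, so that it reads alike on both strands) was searched in promoter windows of 300 bases, from 250 bases before to 50 after each RefSeq start site of GRCm38.p6. Myc had no window in that table. Of the 9 members that had one, 4 held the E-box, while 7.15% of all 32851 windows and 8.09% of all 27025 genes did. Their sites are printed because this hexamer is the element that the network's own dimers recognise. Each is shown 5′ to 3′ on the strand of its gene, with 15 bases on either side and the E-box in capitals. 
Max (chr12:76962231-76962266, minus strand, E-box beginning 3 bases before the start and running across it): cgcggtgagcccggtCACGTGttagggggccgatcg
Mxd4 (chr5:34187909-34187944, minus strand, 219 bases before): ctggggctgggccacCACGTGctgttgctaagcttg
Mnt (chr11:74830786-74830821, plus strand, 123 bases before): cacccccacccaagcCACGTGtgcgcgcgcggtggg
Mlx (chr11:101087235-101087270, plus strand, 40 bases before): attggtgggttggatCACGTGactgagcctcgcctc
Of the partners outside the list, Mlxipl had the hexamer in a promoter window as well, 98 bases before the start: 
Mlxipl (chr5:135089777-135089812, plus strand): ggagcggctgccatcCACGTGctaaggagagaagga
The windows of Mycn, Mycl, Mxd1, Mxd3 and Mxi1 did not hold these letters. No binding was measured, so a match here is a description of the sequence and not of a bound site. None of the 4 members with the hexamer passed the test between the groups in edgeR or DESeq2. As 0 of the members tested passed in edgeR, this does not set those 4 apart.

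**Figure D1:**
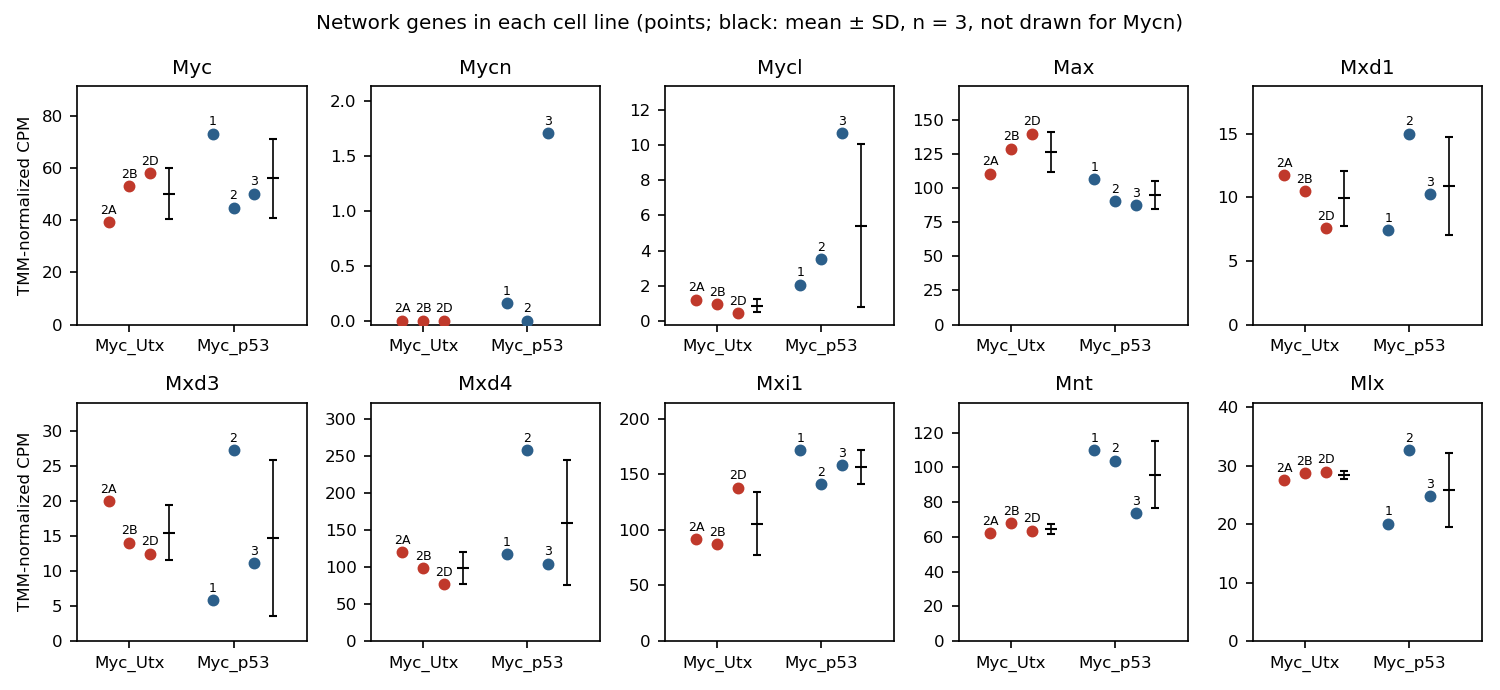
Level of each network gene in each cell line, in TMM-normalized CPM on a linear axis with a range of its own per gene. Red points are Myc_Utx lines, blue points Myc_p53 lines, and black marks the mean and SD of 3 lines. Max is higher in all Myc_Utx lines, Mxi1, Mnt and Mycl are lower, and the other groups overlap or, for Mycn, rest on line 3.

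The first question was whether the delivered oncogene itself differed in mRNA level between the genotypes. Myc (ENSMUSG00000022346, chromosome 15 of GRCm38, 61985391 to 61990374, plus strand) had 39.3, 53.0 and 58.1 CPM in Myc_Utx lines 2A, 2B and 2D and 73.2, 44.9 and 50.2 CPM in Myc_p53 lines 1, 2 and 3. The groups overlapped, with the highest and lowest line belonging to different groups and the other 4 lying close together. The means were 50.1 ± 9.74 and 56.1 ± 15.04 (SD, n = 3), and the log2 fold change of Myc_Utx over Myc_p53 was -0.16 with a 95% interval from -0.75 to 0.42 (adjusted p = 0.667, quasi-likelihood F test of edgeR). The data leave differences of any size within that interval possible. The mean level of Myc lay at percentile 59.5 of the genes tested. The source species of the delivered cDNA is not given in the sources used here, the table has a single Myc row, and reads of the transposon and of the endogenous gene cannot be told apart in it. Reads of a cDNA of another species would count only as far as they align.

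The paralogues were far lower. Mycn (ENSMUSG00000037169, chromosome 12, 12936093 to 12941914, minus strand), known for its role in embryonic tissue and neuroblastoma, had 0, 0 and 0 counts in the Myc_Utx lines and 1, 0 and 12 in the Myc_p53 lines. It did not pass the filter on low counts, and 3 counts, the limit that a count of 0 allows, would correspond to 0.562 to 0.668 CPM in a Myc_Utx line. Mycl (ENSMUSG00000028654, chromosome 4, 122995652 to 123002485, plus strand), first found amplified in lung cancer, had 6, 5 and 2 counts in Myc_Utx lines and 13, 19 and 75 in Myc_p53 lines, or 1.197, 0.936 and 0.445 CPM against 2.05, 3.52 and 10.7. Every Myc_Utx line was below every Myc_p53 line, and line 3 of Myc_p53 was the highest for both paralogues. For Mycl the log2 fold change was -2.62 (standard error 0.75, 95% interval -4.43 to -0.81, adjusted p = 0.0622), the largest in size among the members tested. DESeq2 gave nearly the same estimate, -2.64, and an adjusted p of 0.0273, with 11.3% of the genes it tested called lower. Mycl passed the filter only through its level in the Myc_p53 lines, and without line 3 of that group its log2 fold change was -1.66 (adjusted p = 0.150, edgeR).

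Max, the obligate partner, went the other way. Max (ENSMUSG00000059436, chromosome 12, 76937269 to 76962201, minus strand) had 110.5, 128.6 and 139.6 CPM in Myc_Utx lines against 106.5, 90.3 and 87.4 CPM in Myc_p53 lines. All Myc_Utx lines were above all Myc_p53 lines, although line 2A and Myc_p53 line 1 were close. The log2 fold change was 0.41 (standard error 0.14, 95% interval 0.078 to 0.75), with an adjusted p of 0.0912 that did not pass the threshold of 0.05. Across the 6 alternatives that used all lines it lay between 0.35 and 0.44, with adjusted p from 0.0810 to 0.138.

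Among the antagonists, Mnt and Mxi1 were lower in all Myc_Utx lines. Mnt (ENSMUSG00000000282, chromosome 11, 74830920 to 74845725, plus strand), the broadly expressed repressor of the network, had 62.0, 67.8 and 63.5 CPM against 109.8, 103.8 and 73.6. The Myc_Utx lines were tightly grouped and line 3 of Myc_p53 came closest to them. The difference was -0.57 on the log2 scale (standard error 0.18, 95% interval -0.99 to -0.15, adjusted p = 0.0720). Mxi1 (ENSMUSG00000025025, chromosome 19, 53310506 to 53375810, plus strand), also called Mxd2, had 91.7, 87.1 and 137.8 CPM against 171.6, 140.9 and 158.0. Here line 2D lay just under the lowest Myc_p53 line, and 2A and 2B were well below. The log2 fold change was again -0.57 (standard error 0.20, 95% interval -1.06 to -0.087, adjusted p = 0.101). Neither passed the threshold in any edgeR or DESeq2 fit, the lowest adjusted p with all lines being 0.0516 for Mnt and 0.0735 for Mxi1.

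The remaining MXD genes overlapped between the groups. Mxd4 (ENSMUSG00000037235, chromosome 5, 34173883 to 34187720, minus strand), an MXD member of resting and differentiating cells, had 119.9, 98.7 and 76.8 CPM in Myc_Utx lines and 117.4, 257.5 and 104.5 in Myc_p53 lines. Line 2 of Myc_p53 stood apart, and without it the log2 fold change went from -0.70 (95% interval -1.60 to 0.21, adjusted p = 0.233) to -0.17. The same line was also the highest for Mxd3 and Mxd1. Mxd3 (ENSMUSG00000021485, chromosome 13, 55325168 to 55329823, minus strand), the MXD gene linked to the S phase of dividing cells, had 19.9, 14.0 and 12.5 CPM against 5.85, 27.2 and 11.1. Its Myc_p53 lines ran from the lowest to the highest value of all lines, which left a log2 fold change of 0.077 with an interval from -1.26 to 1.41 (adjusted p = 0.934), and without line 2 of Myc_p53 the value was 0.87. Mxd1 (ENSMUSG00000001156, chromosome 6, 86647042 to 86669161, minus strand), the founding family member, had 11.8, 10.5 and 7.57 CPM against 7.43, 15.01 and 10.3 (log2 fold change -0.13, 95% interval -0.95 to 0.69, adjusted p = 0.809). Mxd3 shares 105 exonic bases with Prelid1 on the opposite strand, which had 1360 to 1766 counts per line, and the sources used here do not say whether counting used strand, so part of its reads could belong to that neighbour.

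Mlx (ENSMUSG00000017801, chromosome 11, 101087277 to 101092207, plus strand) had 27.5, 28.6 and 28.9 CPM in Myc_Utx lines and 20.1, 32.6 and 24.8 CPM in Myc_p53 lines. The Myc_Utx lines were nearly equal and lay inside the range of the others (log2 fold change 0.14, 95% interval -0.37 to 0.64, adjusted p = 0.677). Mlx shares 385 exonic bases with Psmc3ip on the opposite strand, a gene with 63 to 85 counts per line. 

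Counted over the network, 0 of the 9 members tested passed an adjusted p of 0.05 in edgeR in either direction, where 6.99% of all 11510 genes tested were called higher and 7.69% lower. At an unadjusted p under 0.05, 1 member (Max) was higher and 3 (Mycl, Mxi1 and Mnt) were lower, beside 16.6% and 18.3% of all genes. The same 3 members had every Myc_Utx line below every Myc_p53 line, as 20.9% of all genes did, and Max had every line above, as 21.1% did. Of the 9 log2 fold changes, 6 were negative, and their median was -0.16, against -0.012 over all genes tested with quartiles of -0.46 and 0.37. These shares are from a list of few genes, of which Mycl entered through the group where it is high. With 3 lines against 3, an exact two-sided permutation test of a single gene cannot go below 0.1.

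**Figure D2:**
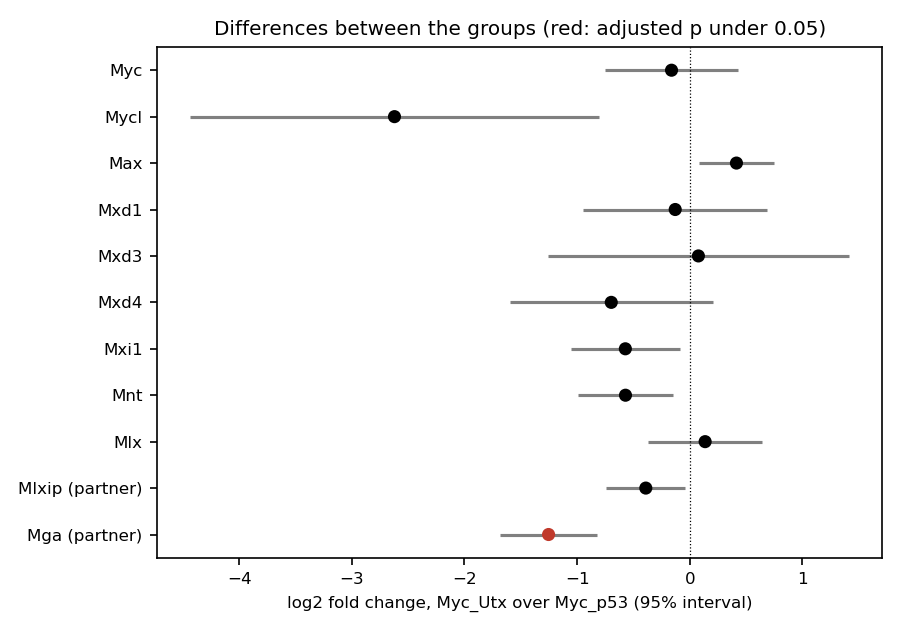
Log2 fold change of Myc_Utx over Myc_p53 lines (x axis) with its 95% interval, from edgeR, for the 9 members tested and for the partners Mlxip and Mga. The intervals of Mycl, Mxi1 and Mnt lie below 0 and that of Max above it, but only Mga, in red, had an adjusted p under 0.05.

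Mga, Mlxipl and Mlxip, partners of MAX and MLX outside the list, each had every Myc_Utx line below every Myc_p53 line. So did 20.9% of all genes tested. Mga and Mlxipl were called lower, beside 7.69% of all genes tested. Mga had 400, 553 and 407 counts in Myc_Utx lines and 1582, 933 and 1615 in Myc_p53 lines, with a wide gap between the groups. Its log2 fold change was -1.25 (standard error 0.18, 95% interval -1.68 to -0.83, adjusted p = 0.0164), and it passed the threshold in all 6 alternatives with all lines, being smallest, at -0.93, with offsets for transcript length. Mlxipl, which encodes the ChREBP factor of hepatocytes, had 2, 2 and 0 counts against 562, 46 and 23 (adjusted p = 0.0446). No fold is given because its Myc_Utx lines are at or under 3 counts. Mlxipl passed the filter on low counts only through the Myc_p53 lines. With length offsets its adjusted p was 0.0516. Mlxip had 75.6, 73.2 and 81.7 CPM against 88.3, 95.3 and 118.5, with no overlap and a log2 fold change of -0.39 that did not pass (adjusted p = 0.113). The calls of Mga and Mlxipl were lost without line 2A (adjusted p 0.0656 and 0.123), 2B (0.0568 and 0.125), 2D (0.0717 and 0.141) or line 3 of Myc_p53 (0.0564 and 0.0576), with the direction kept.

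To compare genes with each other, levels were divided by the length given in the table, in CPM per kilobase. In the Myc_Utx lines Max had the highest mean level (35.1), followed by Mxi1 (18.8), Myc (18.5), Mlx (14.2), Mnt (13.9) and Mxd4 (11.6). In the Myc_p53 lines the order was Mxi1 (27.9), Max (26.3), Mnt (20.7), Myc (20.6), Mxd4 (18.8) and Mlx (12.9). Max lay above every other member in each Myc_Utx line, whereas in Myc_p53 lines neighbours such as Mxi1 and Max, or Mnt, Myc and Mxd4, differed by less than their spread, and the first pair changed order when all exonic bases of GENCODE M21 were used (Mxi1 at 23.0). With those lengths Mxi1 (15.5) also came after Myc in the Myc_Utx lines. At the low end, Mxd3 had 6.54 and 6.22, Mxd1 1.41 and 1.54, Mycl 0.213 and 1.34 and Mycn 0 and 0.189 CPM per kilobase in Myc_Utx and Myc_p53 lines.

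Within a line, the balance of partner and antagonists can be read as ratios of these levels, given here as descriptions without a test. The ratio of Max to Myc was 2.12, 1.83 and 1.81 in Myc_Utx lines and 1.10, 1.52 and 1.32 in Myc_p53 lines. By this measure Max exceeded Myc in every line, and did so more in each Myc_Utx line. Reads of the delivered cDNA enter the Myc level only as far as they align, and the length used is that of the mouse gene. Myc could therefore be misjudged in each ratio to it and in the order of levels above. The 5 antagonists Mxd1, Mxd3, Mxd4, Mxi1 and Mnt summed to 53.9, 49.2 and 53.6 CPM per kilobase against 71.6, 91.5 and 62.5. Their sum over Max was 1.76, 1.38 and 1.38 in Myc_Utx lines against 2.42, 3.65 and 2.57 in Myc_p53 lines, without overlap. The sum and Max each separated the groups on their own, so the separation of their ratio follows from them. Among single genes, 20.9% had every Myc_Utx line below every Myc_p53 line and 21.1% had every line above. The antagonist sum over Myc, by contrast, was 3.73, 2.52 and 2.51 against 2.66, 5.54 and 3.38, which overlapped. The shares of the sum overlapped between the groups. Mxi1 contributed 35.8% ± 8.60 and 38.3% ± 9.55 (SD, n = 3) and Mnt 26.7% ± 2.66 and 27.7% ± 4.73. Within the MXD family, the ratio of Mxd3 to Mxd4 was 0.596, 0.510 and 0.581 in Myc_Utx lines and 0.178, 0.379 and 0.381 in Myc_p53 lines. Each gene alone overlapped, and how often the ratio of other gene pairs separates the groups was not computed. Part of the Mxd3 reads could also belong to Prelid1, as said above. Transcript levels per length do not give amounts of protein.

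**Figure D3:**
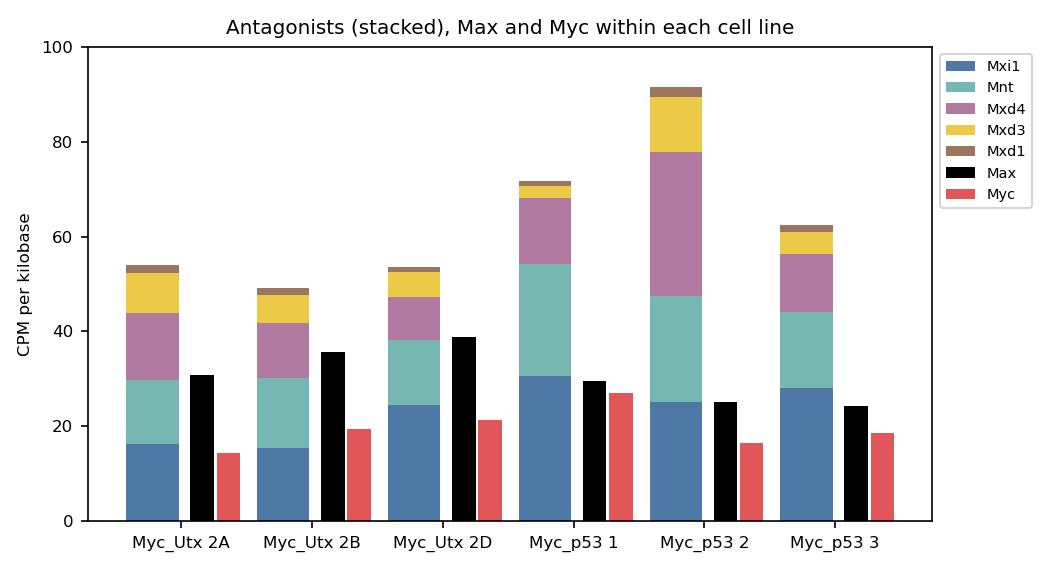
Levels in CPM per kilobase within each cell line: the 5 antagonists stacked (left bar of each line), Max (black) and Myc (red). The stack reaches 49.2 to 53.9 in Myc_Utx lines and 62.5 to 91.5 in Myc_p53 lines, while the Max bar is taller in Myc_Utx lines.

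The genes whose log2 CPM followed Myc most closely over the 6 lines were Ppargc1b, a coactivator of mitochondrial gene expression (Pearson's r = 0.990), Psmd8, a proteasome subunit (0.986), and Alkbh2, a DNA repair enzyme (0.983), and 52 genes had an r above 0.9. Mycl was followed most closely by Tmem123 (0.991), Arhgap1 (0.986) and Sort1 (0.984), with 236 genes above 0.9. These are the extremes of many genes over 6 points, which share libraries and groups, and are given as a description.

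The genes on which the network acts were taken from lists chosen with earlier results of these data known. Of 35 genes listed as activated by MYC, all tested, 15 were higher in Myc_Utx lines and 1 was lower at an adjusted p under 0.05, beside the 6.99% and 7.69% of all genes given above. Their median log2 fold change was 0.43 against -0.012 for all genes. In 19 of them every Myc_Utx line was above every Myc_p53 line, beside 21.1% of all genes tested. Ldha, the lactate dehydrogenase subunit of glycolytic cells, had 2934, 2514 and 3776 CPM against 1405, 1435 and 1203, a log2 fold change of 1.19 (adjusted p = 0.0175). Rrs1 (1.01) and Grwd1 (0.86), both of ribosome assembly, the mitochondrial co-chaperonin Hspe1 (0.91) and the nucleotide kinase Nme1 (0.75) were also higher. The exception was Tert, the catalytic subunit of telomerase and a textbook MYC target. It had 5, 5 and 1 counts in Myc_Utx lines against 123, 78 and 99 in Myc_p53 lines (log2 fold change -4.41, standard error 0.49, adjusted p = 0.0128). Tert entered the test only through the Myc_p53 lines, where it is high. The number of list genes called higher was 10 to 16 in the alternatives with all lines. It was 0 without line 2A, 2B or 2D, 1 without line 3 and 10 and 13 without lines 1 and 2 of Myc_p53, while the median stayed between 0.33 and 0.55.

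Of 9 tested genes listed as repressed by MYC, 1 was higher and 1 lower, close to the 6.99% and 7.69% of all genes. Cdkn1a, the cell cycle inhibitor p21, had 300.5, 300.3 and 243.4 CPM in Myc_Utx lines and 12.8, 5.38 and 26.4 in Myc_p53 lines (log2 fold change 4.23, adjusted p = 0.0156). The groups differ in their edits, so what MYC and what the edits contribute to it cannot be told apart. Ndrg1, a stress-responsive gene, had 43.5, 39.3 and 78.2 CPM in Myc_Utx lines against 144.6, 99.9 and 134.5 in Myc_p53 lines (log2 fold change -1.24, adjusted p = 0.0427, or 0.0701 with length offsets). Among 7 tested targets of MLX with MondoA or ChREBP, the fatty acid synthase gene Fasn was lower (log2 fold change -0.61, adjusted p = 0.0445) and 0 were higher, beside the same shares of all genes. It passed in 4 of the 6 alternatives with all lines. Txnip, the most studied MondoA target, had 60.2, 23.0 and 34.5 CPM against 135.3, 89.0 and 58.9 (log2 fold change -1.26, adjusted p = 0.0955), with overlap. The related target Arrdc4 lay on the other side, with 5.58, 4.12 and 9.13 CPM against 1.896, 2.78 and 3.85 and no overlap (log2 fold change 1.13, adjusted p = 0.123). Neither passed the test.

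Cofactors were read in the same way, against the 6.99% of all genes called higher and 7.69% called lower. Of 12 MYC coactivator genes, the ATPase subunit Ruvbl2 was higher (log2 fold change 0.87, adjusted p = 0.0164) and 3 large scaffold or remodeller genes were lower, namely Trrap (-0.64), Ep400 (-0.67) and Bptf (-0.90). With offsets for transcript length none of these 3 passed (adjusted p 0.115, 0.0763 and 0.0848), and log2 fold changes fell with length over all genes tested (Spearman's rho -0.249). Of 10 corepressor genes used by MXD proteins and MNT, the deacetylase gene Hdac2 was higher (0.82, adjusted p = 0.0177) and 0 were lower, a share near that of all genes, while Sin3a (-0.20) and Sin3b (0.049) overlapped between the groups. Of 15 genes of MYC protein turnover, 3 were higher and 0 lower. These were Plk1 (0.78) and Gsk3a (0.48), kinases, and Stub1 (0.72), a ubiquitin ligase. Gsk3a passed in 2 of the 6 alternatives with all lines, and Stub1 did not pass with length offsets (adjusted p = 0.0626). The ligase gene Fbxw7, which marks phosphorylated MYC for degradation, had 69.6, 37.4 and 66.6 CPM against 34.6, 48.7 and 36.6, with overlap.

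**Figure D4:**
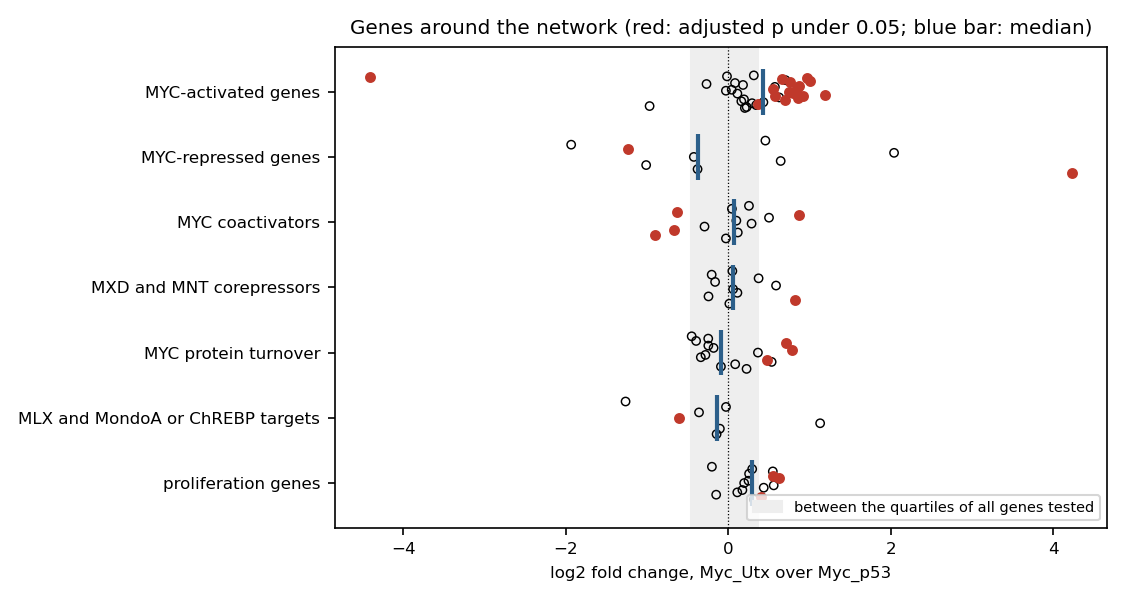
Log2 fold change of Myc_Utx over Myc_p53 lines (x axis) for each tested gene of 7 lists around the network (rows). Red points had an adjusted p under 0.05, blue bars are list medians and the grey band spans the quartiles of all genes tested, -0.46 to 0.37. The MYC-activated genes lie mostly to the right (median 0.43) with Tert far to the left, and the MYC-repressed genes spread both ways.

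Other measures moved with the same groups, and their part in the results above was not tested. Of 15 proliferation genes, Mcm5 (0.62), Mcm6 (0.55) and Birc5 (0.40) were higher and 0 lower (6.99% and 7.69% of all genes). In 10 of the 15 every Myc_Utx line was above every Myc_p53 line, beside 21.1% of all genes tested. Of the 6 alternatives with all lines, Mcm6 passed in 4 and Birc5 in 1. Of 12 macrophage markers, 7 were tested and 6 were lower in Myc_Utx lines, among them Csf1r with 0, 1 and 0 counts against 259, 39 and 243 and Lyz2 with 0, 5 and 0 against 204, 104 and 337. The others were C1qa, C1qb, C1qc and Mpeg1, and all 6 had 0 to 5 counts in Myc_Utx lines, so that they entered the test only through the Myc_p53 lines. The marker Ptprc had at most 3 counts in any line. Cd68, the remaining tested marker, had 2.79, 3.93 and 5.34 CPM in Myc_Utx lines and 10.3, 3.34 and 6.84 in Myc_p53 lines. Its groups overlapped, and its log2 fold change of -0.76 did not pass. The macrophage markers summed to 3.39 to 6.55 CPM in Myc_Utx lines and to 46.2 to 117.5 CPM in Myc_p53 lines. Cd68 made up most of the sum in each Myc_Utx line, and all of it in line 2D. Of 10 hepatocyte markers, 5 were tested and Apob was lower (log2 fold change -5.80, adjusted p = 0.0240), with 0, 6 and 1 counts in Myc_Utx lines, so that it too entered through the Myc_p53 lines. Of the biliary and progenitor markers, 0 of 4 tested passed, with Krt19 at -3.22 (adjusted p = 0.0653) and the other 3 above 0, among them Sox9 at 0.94 (adjusted p = 0.131). Krt19 did pass without a filter (adjusted p = 0.0398) and with DESeq2 (0.0162). Of the fibroblast markers, 0 of 4 tested passed, with Col1a1 at -2.37 (adjusted p = 0.251) and Pdgfra at -1.32 (adjusted p = 0.487). Pdgfrb was the 1 of them above 0, at 0.997 (adjusted p = 0.507). It had 174.3, 272.3 and 115.1 CPM in Myc_Utx lines against 5.21, 176.6 and 100.1 in Myc_p53 lines. Endothelial markers summed to at most 1.42 CPM in any line, and 0 of 6 were tested. In bulk RNA, fewer cells of a type and less RNA per cell cannot be told apart. Of the 30 genes called in the lists and the label check that the naming rule picked, 0, 1 and 1 still passed without line 2A, 2B or 2D. Without line 1, 2 or 3 of Myc_p53, 19, 27 and 3 still passed. All 30 had the same direction in each fit, but they were picked by their call on these same lines. Their kept direction is therefore no separate support.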

How the data were processed

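RNA from 6 cell lines had been sequenced. The authors deposited raw counts of reads per Ensembl gene, without normalization, with other columns for gene position and a length in bases. The submitters' processing notes name Trimmomatic 0.36, STAR 2.5.3a, featureCounts 1.6.3, DESeq2 1.20.0 and GRCm38 (mm10). The study's methods name HTSeq and a human build instead, but the table lists mouse genes, 95.9% of them with the coordinates of GENCODE M21. The length equals all exonic bases there for 12 of the 13 network genes, Mxi1 being the exception.

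Samples were grouped by genotype label. The count model was that of edgeR 4.0.16 in R 4.3.3 (filterByExpr with a minimum count of 10, TMM, quasi-likelihood F test, Benjamini-Hochberg adjustment over 11510 genes, threshold 0.05). Each standard error is the absolute log2 fold change over the square root of F. The biological coefficient of variation was 33.4%. At 3 counts or fewer in every line of a group, a gene was treated as at the floor. Alternatives were no filter, at least 10 counts in every line, DESeq2 size factors, total counts only, offsets for transcript length (MASS 7.3.60.0.1, splines with 5 degrees of freedom), DESeq2 1.42.0 and leaving out each line. Levels per kilobase of GENCODE exons were added after seeing the data. Likeness used log2(CPM + 0.5). The procedure was tested on simulated data.

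The members and lists were chosen with earlier results of these data known. All members are named, and of each list up to 6 genes with the smallest p among those past the threshold, or the 2 with the smallest p where 0 passed. Sort1, Tmem123, Arhgap1, Ppargc1b, Psmd8 and Alkbh2 are the 3 genes with the highest r for Mycl and Myc. Alb, Hnf4a, Krt8, Krt18, Fgb, Ptprc, Cd68, Pdgfrb, Mlxip, Sin3a, Sin3b, Fbxw7, Txnip and Arrdc4 were named after their values were seen. Promoter windows are RefSeq's, where 9 of 10 members matched by symbol. Cip2a was matched by Ensembl identifier. The check of the gene edited in the second group is not reported here.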

Additional observations from a re-analysis of the deposited data

How the results depend on the processing

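The alternatives other than the exonic lengths of GENCODE M21 were set down together with the tests. No paired analysis was possible because no replicate number occurs in both groups. Over all alternatives, the log2 fold changes of the members kept their direction and their side of the threshold in 95 of 107 values. Mycl passed with DESeq2, which called 1 member lower and, over all genes, 1270 higher and 1565 lower (805 and 885 with edgeR). The cause was not tested. Mycl has no value with at least 10 counts in every line. The other 11 values reversed in sign. With length offsets Mxd1 was at 0.021, Mxd3 at -0.053 and Mlx at -0.038, and with a line left out the range was -0.30 to 0.068 for Myc, -0.35 to 0.17 for Mxd1, -0.31 to 0.87 for Mxd3 and -0.024 to 0.34 for Mlx. With a line left out, 0 members were called in each fit, and over all genes 3 to 836 were called higher and 1 to 1118 lower, while 3125 to 4354 had an unadjusted p under 0.05. The fewest calls were made without line 2A. The MYC-activated genes called numbered 0 to 13 higher and 0 to 1 lower in those fits, and 0 were lower with at least 10 counts in every line, where Tert was not tested. Of 410 values of the other named genes, 149 lost the call, 3 gained it and 0 reversed. Most of those genes were named because they were called with all lines, so few reversals say little. Higher genes made up 47.6% of all calls, 37.3% with total counts only and 53.9% with length offsets. Without a filter and with DESeq2 the log2 fold change of the median gene moved by -0.22 and -0.25, as more genes with low counts were tested. At these depths, genes such as Mycn and Mycl rest on few counts.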
